A study of Mus musculus with 12 samples.

Results

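The 6 libraries described here were made from mouse cells that the labels call brain microvascular pericytes. They are 6 of the 12 libraries of the series and were chosen by their label, which matches the columns of 1 count table. In 3 of them the cells were given phosphate-buffered saline (PBS), and in the other 3 the small extracellular vesicles that the labels name MSC.sEV, that is, vesicles shed by mesenchymal stem cells. All 6 carry the genotype WT and a time of 12 hours, and the P4 in their titles is not explained. All 55401 genes in the table were considered, and 16975 had enough counts to be tested. The remaining libraries of the series came from retina cells after optic nerve crush, sit in a separate table and enter no comparison here. The comparison asked which mRNAs differed between cells given the vesicles and cells given PBS. The vesicle dose, the animals and whether the 3 libraries of a group were separate cultures are not given in the sources used here, so p-values measure only the spread between these samples, which may be technical.

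Pericytes lie in the basement membrane of capillaries, wrapped around the endothelium, and in the brain they help to keep the blood-brain barrier and capillary diameter. They are also known to make chemokines and adhesion molecules when they meet inflammatory signals. Such signals reach genes by a pair of routes that recur below. In the NF-kB route, cytokine or Toll-like receptors cause the destruction of inhibitors such as the protein of Nfkbia, and the freed factors switch on cytokine, chemokine and adhesion genes, Nfkbia itself among them. In the interferon route, the receptors activate JAK kinases and then STAT and IRF proteins, which switch on antiviral and antigen presentation genes.

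Libraries held between 33001248 and 37954077 counts, and levels are given in CPM, counts relative to the library size after TMM scaling, which is explained with the processing. In a single library 3 counts were worth 0.0778 to 0.0895 CPM, and where a group had 0 counts a bound on the fold was computed from 3 counts over the group. Group values are mean CPM ± SD with n = 3 libraries, and differences are log2 fold changes of vesicles minus PBS ± SE, with p-values adjusted over all 16975 genes. A gene was called at an adjusted p under 0.05, and "rose" and "fell" are used only of called genes. The first principal component of the tested genes held 52.6% of the variance and separated the groups, with scores from -39.7 to -34.6 for PBS and from 35.2 to 41.2 for vesicles. Along the second (13.8% of the variance) vesicle library 1 stood apart at 35.7, while the other 5 libraries lay between -26.3 and 7.52. Ribosomal protein mRNAs took 3.12% of counts in that library and 2.66% to 2.85% in the others.

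Before any comparison, the cell type label was set against marker genes, with levels divided by gene length so that genes could be compared. Of the 16 pericyte markers, 9 were above 1 CPM in all 6 libraries. Pdgfrb, the receptor through which endothelial PDGF recruits pericytes, stood at 10.9 CPM per kb in the PBS group and Cspg4, the NG2 proteoglycan, at 0.994. Notch3 stood at 3.1, Mcam at 2.65, Zic1 at 2.4, Vtn at 1.94, Anpep at 1.44 and Tbx18 at 1.05 CPM per kb. Other pericyte markers were scarce or absent. Rgs5, a regulator of G protein signalling, stood at 0.0623 CPM per kb and Kcnj8, a subunit of the pericyte potassium channel, at 0.0311, while Abcc9, Higd1b and Ndufa4l2 had 0 counts with PBS. Of the 12 astrocyte markers 7 stood above Pdgfrb on the same scale, among them Aqp4 (the water channel) at 76.5, Sox9 at 60.8, Gfap (an intermediate filament) at 50.9 and Slc1a3 (a glutamate transporter) at 50.8 CPM per kb. The other 5 lay below it, S100b at 7.72, Slc1a2 at 4.26, Agt at 3.35, Gjb6 at 0.0259 and Slc7a10 at 0. Among oligodendrocyte lineage markers, Olig1, a transcription factor, stood at 96.3 CPM per kb, Cnp at 68.7 and Olig2 at 25.4. Mbp stood at 1.39 and Sox10 at 0.0062. The smooth muscle genes Acta2 and Myl9 stood at 261 and 102 CPM per kb, but Tagln stood at 0.816, Myh11 at 0.105 and Des and Pln at 0. Of 12 fibroblast markers 10 were above 1 CPM in all libraries, Islr at 115 and Col1a1 at 30.4 CPM per kb, while Mfap5 stood at 0.267 and Dpt at 0.0152. Of 16 endothelial markers 7 were above 1 CPM in all libraries. Mfsd2a stood at 16.2 CPM per kb, above Pdgfrb, Slco1a4 at 3.87 and Flt1 at 3.28, while Cldn5 was at 0 in all 6 libraries. Some pericyte markers were thus present and others absent, beside markers of other cell types, and the cells are called pericyte-labelled cultures below. In bulk RNA, fewer cells of a type and less RNA per cell cannot be told apart.

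**Figure D1:**
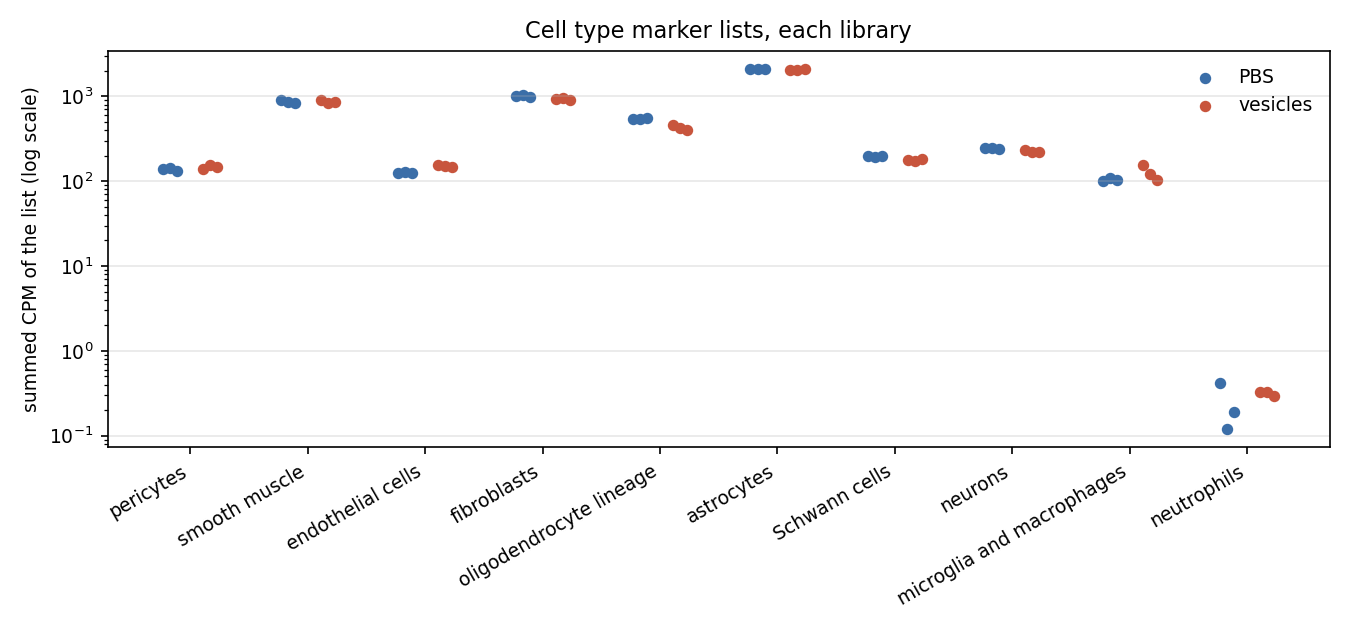
Summed CPM of each cell type marker list (log axis), 1 point per library, PBS in blue and vesicles in red. Astrocyte markers summed to between 2022 and 2112 CPM and pericyte markers to between 130.9 and 155.5 CPM over the 6 libraries, while neutrophil markers stayed at or under 0.415 CPM.

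With vesicles the cultures had far more mRNA of interferon-stimulated genes, chemokines, inflammatory cytokines and NF-kB targets. Of the listed Notch pathway genes 8 of 25 fell and of the listed potassium and chloride channels 11 of 20, each by less than 2-fold. By edgeR's quasi-likelihood test 3365 of 16975 genes were called, which is 19.8%, and these were 1855 higher (10.9%) and 1510 lower (8.9%). Changes of at least 2-fold were more often upward, with 503 genes higher (2.96%) and 126 lower (0.742%). The median over all tested genes was 0.00. Without PBS library 3 the lower calls numbered 993, against 1510 with all libraries. The CPM values of the groups did not overlap in 5738 tested genes (33.8%), called or not. Among these were 3300 called genes (19.4% of those tested), so a lack of overlap adds little to a call.

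**Figure D2:**
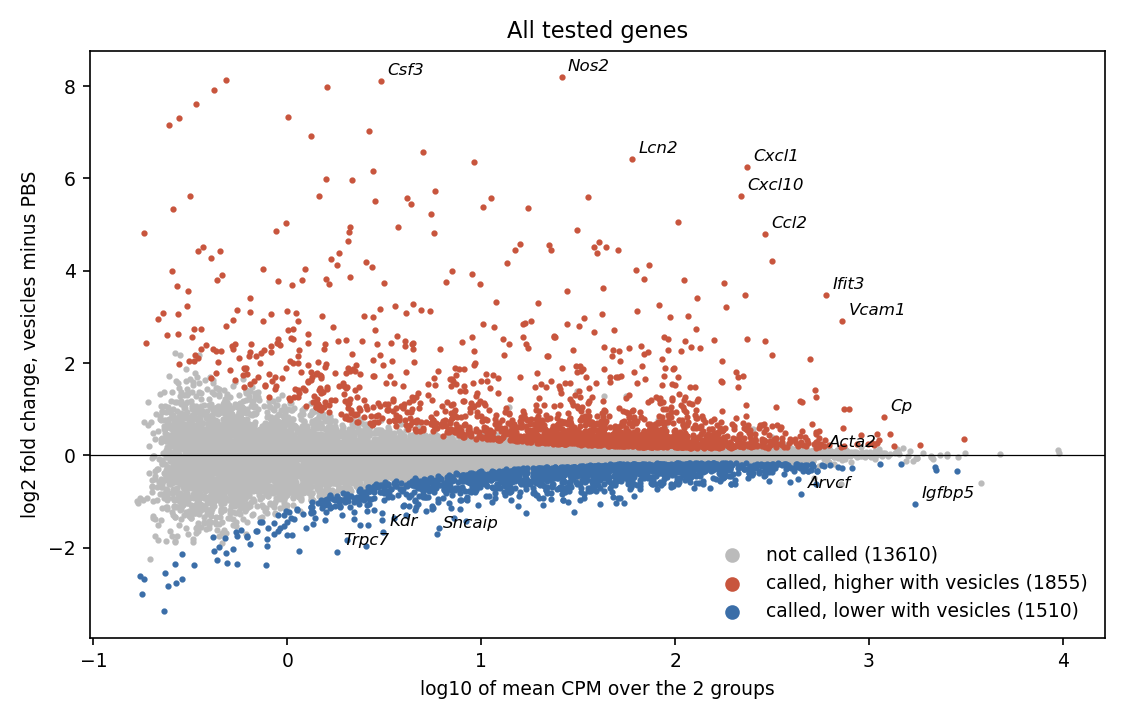
Each tested gene by its mean level over both groups (log10 CPM, horizontal) and its log2 fold change of vesicles minus PBS (vertical), with genes called higher in red, called lower in blue and not called in grey. Of the called genes, 503 reached at least 2-fold upward and 126 at least 2-fold downward, and the upward points reach 8.19 (Nos2).

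Interferon-stimulated genes, whose products sense or block viruses, rose as a whole list. All 46 tested members of 48 listed were called higher, against 10.9% of all tested genes, and 44 of them by at least 2-fold. Their log2 fold changes had a median of 2.65 and ran from 0.51 to 7.32. Of the 46, 3 reached the count filter only through the vesicle libraries and so had to differ. Because the list was drawn up with earlier results of these data known, its direction is not independent evidence.

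Ifit3 (ENSMUSG00000074896), a member of the family of proteins that bind viral RNA, had 91.2, 103 and 105 CPM in PBS libraries 1 to 3 and 1168, 1111 and 1023 CPM in vesicle libraries 1 to 3. Every vesicle library lay above every PBS library. The log2 fold change was 3.47 ± 0.07 (adjusted p = 1.2e-18). Gbp5 (ENSMUSG00000105504), a guanylate-binding protein that acts in inflammasome assembly, stood at 5.37, 5.23 and 7.34 CPM with PBS and 199, 204 and 198 CPM with vesicles. The vesicle libraries lay close together and far above the PBS libraries, with a log2 fold change of 5.06 ± 0.09 (adjusted p = 3.9e-19). Isg15 (ENSMUSG00000035692), a ubiquitin-like modifier, was measured at 8.25, 8.86 and 7.05 CPM with PBS and 139, 150.4 and 128 CPM with vesicles. The groups did not overlap, and the log2 fold change was 4.12 ± 0.09 (adjusted p = 1.6e-18).

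Other effectors of the list behaved alike in direction and differed in size. Rsad2, which makes a nucleotide that ends viral RNA chains, rose from 4.46 ± 0.414 to 97.1 ± 11.9 CPM (4.45 ± 0.10 on the log2 scale). Mx1, a GTPase that blocks influenza-type viruses, rose from 0.842 ± 0.405 to 34.1 ± 4.23 CPM (5.36 ± 0.19 on the log2 scale). The deposited biotype of Mx1 is polymorphic pseudogene, and whether these cells make a working protein was not tested. Iigp1, a GTPase of the vacuoles that hold intracellular parasites, rose from 1.43 ± 0.188 to 69.5 ± 6.98 CPM (5.60 ± 0.12 on the log2 scale). For these genes all vesicle libraries lay above all PBS libraries. Oas3, which makes the signal that activates RNase L, had a summed count of 1 with PBS and 216 with vesicles, and the ratio was 220.1 (95% counting interval 39.1 to 8733). Tgtp2, an interferon-inducible GTPase, rose from 0.211 ± 0.101 to 11.3 ± 1.7 CPM, and Slfn5, of the Schlafen family, from 0.0713 ± 0.0827 to 5.45 ± 0.423 CPM. Oas3, Tgtp2 and Slfn5 had passed the count filter only through the vesicle libraries and so had to differ. Members of the Ifit, Gbp, Oas and Tgtp families resemble each other closely in sequence, so the split of reads among them is uncertain.

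The relay of the interferon route rose too. Stat2 and Irf9, parts of the complex that type I interferon activates, rose by 1.88 and 1.27 on the log2 scale. Irf7, the factor that amplifies type I interferon production, rose from 13.2 ± 0.98 to 115 ± 9.5 CPM (3.12 ± 0.08 on the log2 scale). Irf1, which also responds to NF-kB, rose by 2.20. The RNA sensors Ddx58 (RIG-I) and Ifih1 (MDA5) rose by 2.04 and 2.37 on the log2 scale.

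The 250 bases before the start of Ifit3, Isg15 and Gbp5 show the core of the interferon-stimulated response element, GAAANNGAA, which STAT and IRF proteins recognise. They are printed from RefSeq (build GRCm38.p6), 5′ to 3′ on the gene's strand and ending at the base before the start. Capitals mark matches to GAAANNGAA on either strand and, in Gbp5, also a match to the NF-kB form GGAATTTCC. The printed bases of Ifit3 lie at chr19:34583279-34583528 (plus strand), those of Isg15 at chr4:156200819-156201068 (minus strand) and those of Gbp5 at chr3:142496684-142496933 (plus strand). These genes were chosen after their values and matches were seen.
Ifit3: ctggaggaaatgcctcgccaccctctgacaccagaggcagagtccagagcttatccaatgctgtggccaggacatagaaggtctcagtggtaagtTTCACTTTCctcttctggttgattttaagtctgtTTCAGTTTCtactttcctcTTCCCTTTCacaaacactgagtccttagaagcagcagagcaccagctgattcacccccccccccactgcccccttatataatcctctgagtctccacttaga
Isg15: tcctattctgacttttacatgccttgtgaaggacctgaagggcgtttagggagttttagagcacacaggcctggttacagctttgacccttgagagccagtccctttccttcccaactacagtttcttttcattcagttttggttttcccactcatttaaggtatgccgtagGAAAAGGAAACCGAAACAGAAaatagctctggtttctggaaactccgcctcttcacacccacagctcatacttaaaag
Gbp5: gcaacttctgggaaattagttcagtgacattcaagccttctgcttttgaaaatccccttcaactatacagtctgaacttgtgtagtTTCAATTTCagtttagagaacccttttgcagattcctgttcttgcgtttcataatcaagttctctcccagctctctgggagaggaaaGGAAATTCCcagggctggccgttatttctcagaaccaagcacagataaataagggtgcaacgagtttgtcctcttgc
Ifit3 held 3 matches, the nearest starting 102 bases before the start, and Isg15 held 3 overlapping ones between 78 and 58 bases before it. Over windows from 250 bases before to 50 after the start, GAAANNGAA was found in 21 of the 33 called list members that have a window (63.6%). Over all 27025 genes with a window the share was 9.76%, and over the 11869 tested genes with a window it was 8.59%. The STAT form TTCNNNGAA was in 33.3% of the same 33 genes and in 9.55% of all genes. A match describes the letters and does not show that a factor was bound.

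Inflammatory cytokines and NF-kB targets held the largest single log2 fold change. All 36 listed members were tested, and 34 rose (94.4%, against 10.9% of all tested genes), 1 fell and 1 was not called. The median log2 fold change was 2.48, against 0.00 over all tested genes. Of the 36, 6 reached the count filter only through the vesicle libraries and so had to differ, Nos2 among them. Nos2 (ENSMUSG00000020826), which makes nitric oxide in inflamed cells, was measured at 0.156, 0.297 and 0.081 CPM with PBS and 49.5, 55.1 and 50.9 CPM with vesicles. The PBS libraries were near the floor of detection and the vesicle libraries far above it. Its log2 fold change was 8.19 ± 0.18 (adjusted p = 1.6e-18). Lcn2 (ENSMUSG00000026822), which captures bacterial iron carriers, stood at 0.986, 1.37 and 1.78 CPM with PBS and 124, 113 and 117 CPM with vesicles, without overlap (6.42 ± 0.12 on the log2 scale, adjusted p = 3.9e-19).

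Among the secreted cytokines, most were scarce with PBS. Il1b, a leading fever and endothelial activation signal, rose from 0.0985 ± 0.0663 to 9.91 ± 2.82 CPM (6.57 ± 0.34 on the log2 scale), and Il6, the inducer of the acute-phase response, from 0.0535 ± 0.0435 to 1.9 ± 0.361 CPM. Il1a rose by 5.59 and Tnf by 2.71 on the log2 scale, Tnf from 0.752 ± 0.204 to 4.93 ± 0.26 CPM. Tnf, which had passed the count filter in both groups, had its lowest vesicle library above its highest PBS library. Il1b, Il6 and Il1a did too, but they had passed only through the vesicle libraries and so had to differ. Csf3, the granulocyte growth factor, had a summed count of 2 with PBS and 640 with vesicles, and the ratio was 326 (95% counting interval 89.9 to 2698). Csf2, the granulocyte-macrophage growth factor, had 0 counts with PBS and 58 with vesicles, at least 19.7-fold higher against a floor of 3 counts over the group. Csf3 and Csf2 had also passed only through the vesicle libraries. Csf1 (ENSMUSG00000014599), the macrophage growth factor, was already expressed at 289.9, 286 and 282 CPM with PBS and reached 691, 804 and 797 CPM with vesicles (1.42 ± 0.06 on the log2 scale, adjusted p = 3e-13). The PBS libraries lay close together and well below every vesicle library. Lif, a cytokine of the interleukin 6 family, rose by 2.41 on the log2 scale.

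Membrane and receptor genes rose as well, of which Tlr3, Cd274 and Tnfrsf1b are not on the list. Vcam1 (ENSMUSG00000027962), the adhesion molecule that holds monocytes and lymphocytes, stood at 174, 164 and 174 CPM with PBS and 1366, 1236 and 1241 CPM with vesicles. No PBS library came near the vesicle libraries, and the log2 fold change was 2.91 ± 0.06 (adjusted p = 1.6e-18). Icam1, the ligand of leukocyte integrins, rose from 8.91 ± 1.01 to 74.7 ± 3.25 CPM (3.06 ± 0.09 on the log2 scale). Tlr2, a receptor for bacterial lipoproteins, rose from 3.64 ± 0.819 to 84.1 ± 0.96 CPM (4.52 ± 0.11 on the log2 scale), and Tlr3, the receptor for double-stranded RNA, from 14.3 ± 0.913 to 52.6 ± 3.68 CPM (1.88 ± 0.08). The complement gene C3 rose from 115 ± 4.28 to 515 ± 47.7 CPM (2.17 ± 0.07 on the log2 scale). Cd274, which encodes the checkpoint ligand PD-L1, rose from 0.909 ± 0.181 to 12.3 ± 0.919 CPM, and Tnfrsf1b, a TNF receptor, from 4.57 ± 1.6 to 13.6 ± 0.849 CPM.

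The brakes and the subunits of NF-kB rose together. Nfkbia (ENSMUSG00000021025), the inhibitor that is resynthesised as the route is used, had 73.8, 65.4 and 69 CPM with PBS and 417, 386 and 398 CPM with vesicles. The log2 fold change was 2.53 ± 0.06 (adjusted p = 1.5e-17), with no overlap. Tnfaip3, the A20 protein that ends receptor signalling, rose from 21 ± 2.78 to 168 ± 9.35 CPM (3.00 ± 0.08 on the log2 scale). Tnfaip2 rose by 3.73, Relb by 1.80, Nfkb2 by 1.52 and Nfkb1 by 0.88 on the log2 scale. Socs3, a brake on cytokine receptors, and Il1rn, the interleukin 1 receptor antagonist (not on the list), rose by 0.80 and 1.78. Traf1, an adaptor of TNF receptors, was the member that fell, from 92.6 ± 4.23 to 76 ± 2.62 CPM (-0.29 ± 0.06 on the log2 scale, adjusted p = 0.0016). Ptgs2, the inducible cyclooxygenase, was not called (adjusted p = 0.48). It had 39.3, 4.96 and 6.89 CPM in PBS libraries 1 to 3 and 78.1, 27.5 and 30.2 CPM in vesicle libraries 1 to 3, so library 1 was the highest of each group and the groups overlapped.

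The promoters of Cxcl10, Cxcl1 and Nfkbia are shown because they hold exact forms of the NF-kB site, a choice also made after the matches were seen. Both forms searched, GGACTTTCC and GGAATTTCC, are in capitals on either strand, as are matches to GAAANNGAA, again over 250 bases from RefSeq (GRCm38.p6) read 5′ to 3′. The bases of Cxcl10 lie at chr5:92348890-92349139 (minus strand), those of Cxcl1 at chr5:90890995-90891244 (plus strand) and those of Nfkbia at chr12:55492648-55492897 (minus strand).
Cxcl10: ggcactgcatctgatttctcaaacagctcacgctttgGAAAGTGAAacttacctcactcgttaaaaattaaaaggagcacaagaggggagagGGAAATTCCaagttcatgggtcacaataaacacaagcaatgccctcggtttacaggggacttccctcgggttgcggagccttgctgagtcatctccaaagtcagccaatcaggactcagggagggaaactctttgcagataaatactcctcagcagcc
Cxcl1: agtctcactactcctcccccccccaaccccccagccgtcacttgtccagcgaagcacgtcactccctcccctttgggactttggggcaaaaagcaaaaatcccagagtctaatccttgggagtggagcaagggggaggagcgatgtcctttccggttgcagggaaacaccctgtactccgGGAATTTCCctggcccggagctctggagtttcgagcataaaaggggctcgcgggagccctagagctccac
Nfkbia: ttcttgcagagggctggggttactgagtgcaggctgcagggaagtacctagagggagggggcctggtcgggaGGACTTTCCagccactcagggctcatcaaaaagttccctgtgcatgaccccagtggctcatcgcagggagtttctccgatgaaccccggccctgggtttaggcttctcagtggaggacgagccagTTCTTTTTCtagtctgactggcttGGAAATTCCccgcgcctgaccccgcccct
Cxcl10 and Nfkbia held both kinds of site and Cxcl1 an NF-kB form only. In the windows of 300 bases, either NF-kB form was found in 5 of the 28 called members of the cytokine and NF-kB list that have a window (17.9%), against 0.777% of all genes with a window. The AP-1 form TGANTCA was in 7 of the same 28 genes (25%) and in 8.97% of all genes. It was also in 8 of the 33 called interferon-stimulated genes with a window (24.2%). GAAANNGAA was in 3 of the 28 (10.7%), near the 9.76% of all genes. These matches too describe letters and not binding.

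Chemokines rose broadly, including attractants of neutrophils, monocytes and T cells. Of 29 listed, 23 were tested and 19 rose (82.6%, against 10.9% of all tested genes), with a median log2 fold change of 3.13. None fell by edgeR, DESeq2 or limma voom, and 20 had an unadjusted p under 0.05 in edgeR. Here 6 of the 23 reached the filter only through the vesicle libraries and so had to differ, and the median includes them. The 4 tested members that were not called were Ccl25, Ccl27a, Ccl28 and Cxcl14.

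Neutrophil attractants that bind CXCR2 were among them. Cxcl1 (ENSMUSG00000029380) was measured at 7.62, 4.52 and 6.02 CPM with PBS and 529, 406 and 451 CPM with vesicles. All vesicle libraries lay far above all PBS libraries, with a log2 fold change of 6.24 ± 0.19 (adjusted p = 2.8e-07). Cxcl2 rose from 1.81 ± 0.318 to 42.7 ± 6.36 CPM and Cxcl5 from 3.59 ± 0.611 to 75.5 ± 10.9 CPM (4.55 ± 0.14 and 4.39 ± 0.12 on the log2 scale). Cxcl3, close in sequence to Cxcl1 and Cxcl2, rose from 0.0684 ± 0.0961 to 4.23 ± 1.2 CPM. It had passed the filter only through the vesicle libraries and so had to differ. Among attractants of monocytes, Ccl2 (ENSMUSG00000035385) stood at 24.1, 14.3 and 22.2 CPM with PBS and 629, 499 and 549.8 CPM with vesicles. PBS library 2 and vesicle library 2 were the lowest of their groups, the groups did not overlap, and the log2 fold change was 4.79 ± 0.24 (adjusted p = 0.00014). Ccl7, which shares the receptor CCR2, rose from 3.11 ± 0.681 to 77.6 ± 10.4 CPM (4.63 ± 0.13 on the log2 scale).

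The CXCR3 ligands, which attract T cells and are made in response to interferon, rose as well. Cxcl10 (ENSMUSG00000034855) had 6.92, 9.12 and 9.99 CPM in the PBS libraries and 442, 448 and 392 CPM in the vesicle libraries. Without overlap, its log2 fold change was 5.62 ± 0.10 (adjusted p = 3.9e-19). Cxcl11 rose from 0.187 ± 0.111 to 8.51 ± 0.805 CPM and Cxcl9 from 0.0346 ± 0.0599 to 0.772 ± 0.446 CPM. Both had passed the filter only through the vesicle libraries and so had to differ. The deposited biotype of Cxcl11 is polymorphic pseudogene, and whether a working protein is made was not tested. Ccl5, which attracts T cells and monocytes, rose from 0.214 ± 0.203 to 18.1 ± 0.795 CPM (6.35 ± 0.27 on the log2 scale). Ccl20, the ligand of CCR6, had a summed count of 1 with PBS and 339 with vesicles, and the ratio was 345 (95% counting interval 61.6 to 13684). Ccl5 and Ccl20 too had passed the filter only through the vesicle libraries and so had to differ. The membrane-bound Cx3cl1 rose from 87.2 ± 4.38 to 262 ± 9.23 CPM (1.59 ± 0.06 on the log2 scale), and Cxcl16 by 2.44. Cxcl12, which retains cells in the marrow and at vessels, changed least among the called members, with a log2 fold change of 0.48 ± 0.09.

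**Figure D3:**
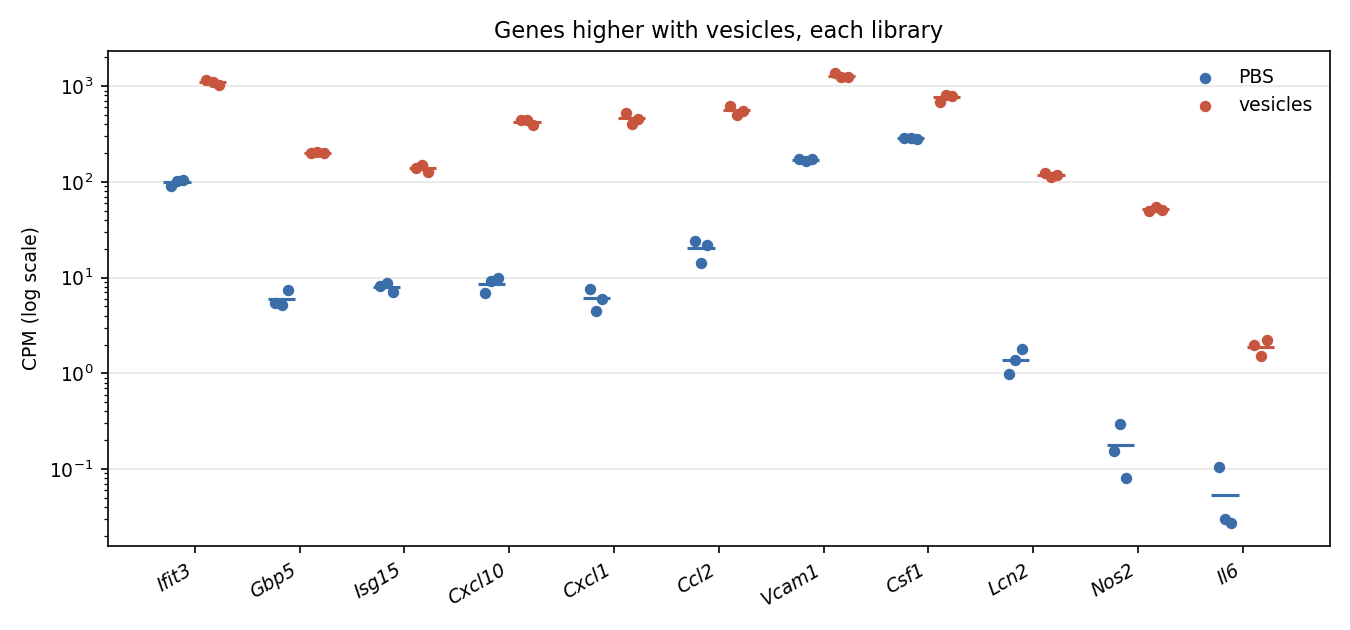
CPM (log axis) of 11 genes in each library, PBS in blue and vesicles in red, with a bar at the group mean. No gene shown has a PBS library as high as any vesicle library, and Cxcl1, for example, went from 6.05 ± 1.55 to 462 ± 61.9 CPM. Nos2, Lcn2, Cxcl1 and Cxcl10 were named by a rule that required no overlap. Nos2 and Il6 passed the count filter only through the vesicle libraries.

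Genes of antigen presentation by MHC class I rose. Of 22 members listed 20 were tested, 1 of them only through the vesicle libraries. Of the 20, 16 rose (80.0%, against 10.9% of all tested genes), with a median log2 fold change of 1.40. None fell by edgeR, DESeq2 or limma voom, and 16 had an unadjusted p under 0.05 in edgeR. The peptide transporter genes Tap1 and Tap2 rose from 32.6 ± 2.72 to 139 ± 16.2 CPM and from 33.6 ± 0.903 to 106 ± 12 CPM. Psmb8, Psmb9 and Psmb10, the inducible subunits of the immunoproteasome, rose by 2.57, 2.32 and 1.55 on the log2 scale. The class I heavy chain H2-K1 rose from 57.6 ± 2.24 to 135 ± 18.6 CPM (1.23 ± 0.08 on the log2 scale) and its partner B2m from 69.2 ± 1.68 to 132 ± 13.2 CPM (0.93 ± 0.07). Nlrc5, the transactivator of class I genes, rose by 3.02. Reads of the H2 genes can fall on near-identical copies, so their split is uncertain. The 4 members that were not called were all class II genes, H2-Ab1, H2-Eb1, H2-DMa and H2-DMb1, while Cd74, the class II chaperone, rose from 0.692 ± 0.0852 to 2.3 ± 0.402 CPM.

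Macrophages also express many of these genes, and their markers were measured beside them. The 16 microglia and macrophage markers summed to between 101.4 and 108.9 CPM with PBS and between 102.7 and 154.8 CPM with vesicles, most of it Lyz2. Lyz2, a lysozyme, had 69.8, 74.9 and 70.8 CPM with PBS and 116, 87.3 and 74.8 CPM with vesicles and was not called (adjusted p = 0.14). Of the 16 markers, all tested, 2 had passed the filter only through the vesicle libraries, Ptprc among them, and 1 only through the PBS libraries. Those that rose numbered 2 (12.5%, near the 10.9% of all tested genes). They were Ptprc (CD45), from 0.254 ± 0.178 to 1.13 ± 0.0814 CPM, and Adgre1 (F4/80), from 2.25 ± 0.766 to 3.9 ± 0.521 CPM. None fell by edgeR, DESeq2 or limma voom (7 had an unadjusted p under 0.05 in edgeR), while the fit without vesicle library 1 called 2 higher and 4 lower. Those without PBS library 1 or 3 or vesicle library 2 called 1 higher, and that without vesicle library 3 called 4 higher. Neutrophil markers summed to between 0.119 and 0.415 CPM with PBS and between 0.296 and 0.328 CPM with vesicles, and none reached the filter. In the inflammatory lists, the fit without vesicle library 1 called all 47 interferon-stimulated genes then tested higher. It also called 34 of 36 cytokine and NF-kB genes, 19 of 23 chemokines and 16 of 21 antigen presentation genes higher. Lyz2 was present in every library, and the part of macrophages in the inflammatory changes was not tested.

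**Figure D4:**
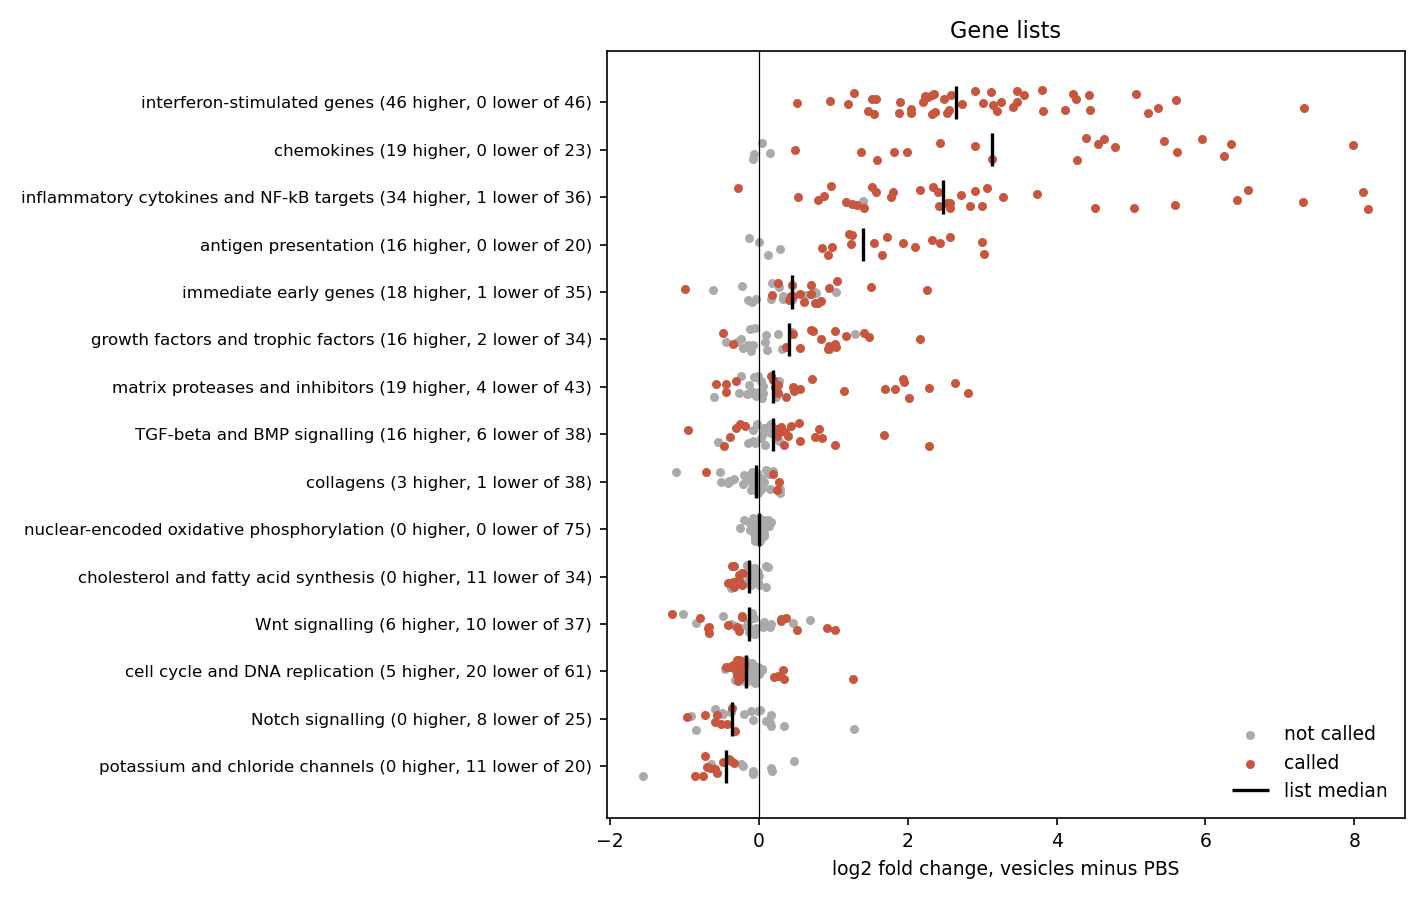
Log2 fold change of vesicles minus PBS for each tested member of 15 gene lists, called genes in red, others in grey, with a black bar at the list median. The interferon list is wholly at the right of 0, with a median of 2.65, whereas the 75 oxidative phosphorylation genes cluster at 0 and the potassium and chloride channels have a median of -0.44.

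Growth factors rose in part. Of 36 members listed 34 were tested, 2 of them only through the vesicle libraries, and 16 rose and 2 fell, against 10.9% and 8.9% of all tested genes, with a median log2 fold change of 0.41. Angptl4, an inhibitor of lipoprotein lipase that also acts on vessels, rose most among them, from 8.06 ± 1.36 to 36.2 ± 7.01 CPM (2.16 ± 0.13 on the log2 scale). The EGF receptor ligands Areg and Hbegf rose by 1.47 and 0.94 on the log2 scale, and Nrg1, a ligand of ERBB receptors, rose from 33.8 ± 2.17 to 68.8 ± 5.6 CPM. The neurotrophic factors Gdnf and Bdnf rose by 0.95 and 0.70 on the log2 scale. Gdnf reached 11.5 ± 0.996 CPM and Bdnf 7.24 ± 0.789 CPM. Vegfa, the main angiogenic factor, went from 37.4 ± 2.65 to 40.4 ± 1.89 CPM and was not called (adjusted p = 0.38). Vegfc, the lymphatic factor, rose by 1.41, a call that was lost without vesicle library 2 (adjusted p = 0.054). Pdgfc and Fgf1 were the members that fell, by 0.48 and 0.35 on the log2 scale.

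Immediate early genes, which answer growth factor and stress signals within minutes, rose in part. Of 35 tested members 18 rose (51.4%, against 10.9% of all tested genes), 1 fell and 16 were not called, with a median of 0.44. Fosl1, an AP-1 subunit, rose from 2.03 ± 0.582 to 5.83 ± 1.32 CPM and Klf6 from 82.5 ± 9.66 to 147 ± 13.1 CPM. Junb, another AP-1 subunit, rose from 216 ± 36.9 to 448 ± 49.7 CPM, a call lost without vesicle library 1 (adjusted p = 0.064). Nr4a2, an orphan nuclear receptor, fell by 0.99 on the log2 scale. The values of Ier3 were 56.9, 24.6 and 29 CPM with PBS and 216, 146 and 169 CPM with vesicles. It was called (adjusted p = 0.026), but the call was lost in 5 of the 6 fits that left out a library.

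In the TGF-beta and BMP list 16 of 38 tested members rose (42.1%, against 10.9% of all tested genes) and 6 fell (15.8%, against 8.9%). Of those that rose, Bmp2 had passed the filter only through the vesicle libraries. Inhba, the activin A subunit, rose from 20.8 ± 0.209 to 42.2 ± 6.43 CPM, and Fst, which binds activin, from 28.3 ± 1.31 to 50.8 ± 2.43 CPM. Smad3, a receptor-activated signal carrier, rose by 0.81 on the log2 scale. Tgfb2 fell by 0.31, and the inhibitors of differentiation Id4 and Id2, usual BMP targets in glia, fell by 0.95 and 0.47 on the log2 scale. Id4 went from 30.2 ± 1.95 to 15.6 ± 1.46 CPM.

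Matrix proteases and their inhibitors rose in part. Of 43 members of the protease list, all tested, 19 rose (44.2%, against 10.9% of all tested genes) and 4 fell (9.3%, near the 8.9%). Of the 43, 2 had passed the filter only through the vesicle libraries, Mmp12 among them. Plaur, the urokinase receptor, rose from 16.3 ± 2.37 to 53 ± 5.68 CPM (1.70 ± 0.10 on the log2 scale), and Timp1, an inhibitor of metalloproteinases, from 52.4 ± 4.8 to 115 ± 11.4 CPM (1.14 ± 0.08). Mmp9, a gelatinase that opens basement membrane, rose from 0.933 ± 0.179 to 3.3 ± 0.368 CPM, and Mmp12 and Mmp13 rose by 2.64 and 2.02 on the log2 scale. Mmp3, a stromelysin, had 39.1, 21.4 and 22.9 CPM with PBS and 138, 89.5 and 94.1 CPM with vesicles and was called (adjusted p = 0.024), but 5 of the 6 fits that left out a library lost the call. Timp4 and the membrane protease Mmp15 fell by 0.58 and 0.44. Of 43 collagens listed and 38 tested, 3 rose (7.89%, against 10.9%) and 1 fell (2.63%, against 8.9%). None of the called changes reached 2-fold. Without PBS library 3 only 1 rose, and without vesicle library 2 the number that fell was 4. Col6a1 rose by 0.27, Col9a1 fell by 0.71, and Col1a1, the main fibrillar collagen, went from 199.8 ± 13.9 to 177 ± 20.1 CPM without a call (adjusted p = 0.1). In the list of matrix glycoproteins and proteoglycans 11 of 46 rose (23.9%, against 10.9%) and 4 fell (8.7%, near the 8.9%). Without PBS library 3 the number that rose was 6. Tnc rose by 0.66, Thbs2 by 0.59 and Spp1 by 0.66, and Vcan fell by 0.32 on the log2 scale.

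Several abundant genes outside the immune lists also rose. Cp, the copper-carrying ferroxidase ceruloplasmin, rose from 858 ± 29.8 to 1521 ± 86.4 CPM (0.83 ± 0.06 on the log2 scale). Sdc4, a heparan sulfate proteoglycan of focal adhesions, rose from 498 ± 43 to 996 ± 27.9 CPM, and Cd44, the hyaluronan receptor, from 314 ± 40.2 to 753 ± 31.6 CPM. Tm4sf1, a membrane protein of migrating cells, had 521, 521 and 530.3 CPM with PBS and 1243, 957 and 935 CPM with vesicles, with vesicle library 1 the highest. None of the 4 had an overlap between the groups.

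Falls of at least 2-fold were fewer than rises of that size. Igfbp5 (ENSMUSG00000026185), a binding protein of insulin-like growth factors, had the highest mean CPM among the named genes that fell at least 1.5-fold. It stood at 2316, 2353 and 2336 CPM with PBS and 1005, 1169 and 1192 CPM with vesicles. The PBS libraries lay close together and all vesicle libraries far below them, for a log2 fold change of -1.06 ± 0.07 (adjusted p = 7.8e-11). Arvcf, a catenin of cell junctions, fell from 574 ± 26.3 to 322 ± 29.2 CPM. Pygb, the brain glycogen phosphorylase, fell from 649.6 ± 30.4 to 421 ± 11.1 CPM, Daam2, a formin of the Wnt route, from 236 ± 4.03 to 153 ± 18.2 CPM, and Pak1, a kinase of actin remodelling, from 169 ± 6.12 to 109.6 ± 2.69 CPM. Acot1, a cytosolic acyl-CoA thioesterase, fell by 0.63, Tspan9 by 0.70 and Lratd2 by 0.62 on the log2 scale.

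Larger relative falls occurred among scarce mRNAs. Trpc7, a calcium-permeable channel, had 2.7, 2.44 and 3.65 CPM with PBS and 0.955, 0.602 and 0.512 CPM with vesicles. Its log2 fold change of -2.09 ± 0.32 was the largest fall among named genes with at least 2 CPM in the higher group. Sncaip, which encodes synphilin 1, fell from 9.05 ± 1.64 to 2.75 ± 0.808 CPM, and Pag1, a membrane adaptor that recruits CSK, from 12.2 ± 1.79 to 4.49 ± 0.592 CPM. Kdr and Flt1, both VEGF receptors, moved in opposite directions. Kdr fell from 4.73 ± 0.185 to 1.49 ± 0.335 CPM (-1.66 ± 0.22 on the log2 scale), and Flt1, which also acts as a decoy for VEGF, rose from 44.3 ± 0.66 to 78.5 ± 4.41 CPM (0.83 ± 0.06). Mycn, a growth-promoting transcription factor, fell from 3.87 ± 0.644 to 1.37 ± 0.262 CPM, while its relative Myc rose from 20.9 ± 0.731 to 34 ± 2.99 CPM. Kcns1 (a potassium channel subunit), Gmnc, Ankrd66, Aff3 and Gdf10 fell by 1.51, 1.41, 1.38, 1.36 and 1.35 on the log2 scale. Ccna1 fell from 2.0 ± 0.522 to 0.71 ± 0.364 CPM and Acot5 from 2.27 ± 0.654 to 0.856 ± 0.322 CPM, and both calls were lost without PBS library 2 (adjusted p = 0.078 and 0.062).

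**Figure D5:**
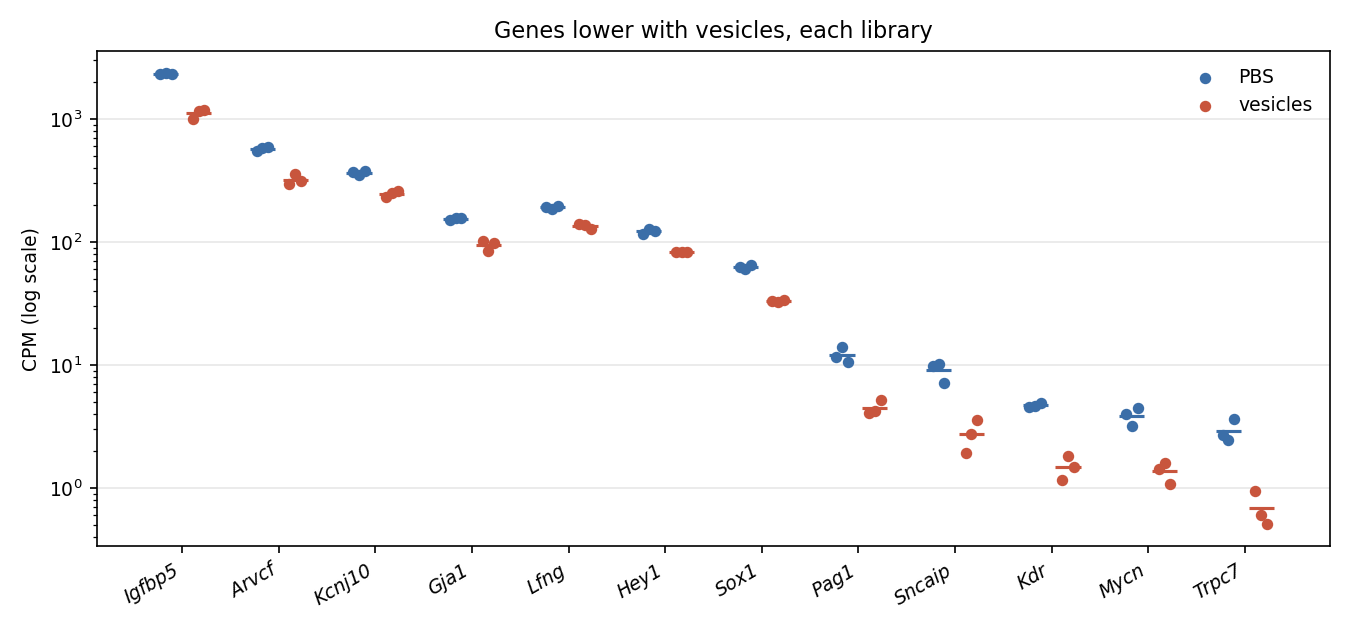
CPM (log axis) of 12 genes that fell, in each library, PBS in blue and vesicles in red, with a bar at the group mean. In every gene shown the 3 vesicle libraries lie below the 3 PBS libraries, as for Sox1, with 62.5 ± 2.53 CPM against 33.2 ± 0.669 CPM. Trpc7, Sncaip, Kdr, Mycn and Pag1 were named by a rule that required no overlap.

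Genes of the Notch route, through which neighbouring cells hold each other in a precursor state, fell in part. Of 26 members listed 25 were tested, 1 of them only through the PBS libraries, and 8 fell and none rose, against 8.9% and 10.9% of all tested genes, and the median was -0.37. No member was called higher by DESeq2 or limma voom either, 12 had an unadjusted p under 0.05 in either direction, and without vesicle library 1 the edgeR fit called 2 higher. Among the receptors, Notch1 fell from 174 ± 4.33 to 139 ± 8.08 CPM, Notch2 from 342 ± 15.8 to 265 ± 31.9 CPM and Notch3, the pericyte and smooth muscle receptor, from 25 ± 1.0 to 18.6 ± 1.57 CPM. Of the ligands Jag2 fell, from 4.16 ± 0.184 to 2.13 ± 0.476 CPM (-0.97 ± 0.22 on the log2 scale). Lfng, the glycosyltransferase that tunes which ligand a receptor answers, had 193, 187 and 195 CPM with PBS and 139, 137 and 127 CPM with vesicles. The groups did not overlap, and the log2 fold change was -0.51 ± 0.06 (adjusted p = 6.8e-07). The target Hey1 fell from 123 ± 4.92 to 83 ± 0.557 CPM (-0.56 ± 0.06 on the log2 scale), Hes6 by 0.59 and Dtx1, a ubiquitin ligase of the route, by 0.72. Hes1, the best-known target, had 37.4, 28.6 and 46.2 CPM with PBS and 25.6, 21.4 and 33.1 CPM with vesicles, and was not called (adjusted p = 0.23), though it was called lower without PBS library 2 (0.0038) and without vesicle library 3 (0.032).

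Potassium and chloride channels of the list fell in 11 of 20 tested members (55.0%, against 8.9% of all tested genes). None rose, and the median was -0.44. Of the 29 listed, 9 were too scarce to test, and 2 of the 20 had passed the filter only through the PBS libraries. DESeq2 and limma voom called the same number, 11 lower and 0 higher, and 12 members had an unadjusted p under 0.05. Kcnj10 (ENSMUSG00000044708), the inward rectifier through which astrocytes clear potassium, had 371, 348 and 375 CPM with PBS and 232, 251 and 258 CPM with vesicles. All vesicle libraries were lower, for a log2 fold change of -0.56 ± 0.06 (adjusted p = 3.1e-07). Its partner Kcnj16 fell from 36.9 ± 1.78 to 28 ± 0.812 CPM, and Kcnj2, the rectifier that sets the resting potential of many vascular cells, from 17.1 ± 0.982 to 9.43 ± 1.19 CPM. The voltage-gated Kcnc1 and the background channel Kcnk2 fell by 0.70 and 0.66 on the log2 scale. Kcns1, a potassium channel subunit that is not on the list, fell by 1.51.

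Astrocyte and oligodendrocyte lineage markers were measured beside these. The 12 astrocyte markers summed to between 2082 and 2112 CPM with PBS and between 2022 and 2087 CPM with vesicles. Of the 10 tested 5 fell and 1 rose, against 8.9% and 10.9% of all tested genes. Gja1, the connexin that couples astrocytes, fell from 155 ± 2.9 to 95.2 ± 10.1 CPM (-0.70 ± 0.07 on the log2 scale), Sox9 from 251 ± 4.55 to 206 ± 11.3 CPM and Agt, angiotensinogen, from 6.34 ± 0.964 to 2.93 ± 0.528 CPM. Aqp4 rose, from 477 ± 12.4 to 623 ± 29 CPM (0.38 ± 0.06 on the log2 scale), and Gfap went from 215 ± 6.38 to 200.1 ± 7.18 CPM without a call (adjusted p = 0.24). The 18 oligodendrocyte lineage markers summed to between 542.8 and 558.4 CPM with PBS and between 402.4 and 462.1 CPM with vesicles. Of 11 tested 4 fell (36.4%, against 8.9%), 1 of them, Enpp6, having passed the filter only through the PBS libraries. Olig1 fell from 208 ± 2.69 to 149.7 ± 15.4 CPM and Cnp, a myelin enzyme, from 250.2 ± 7.09 to 205 ± 10.1 CPM. Outside the lists, Sox1, a factor of neural precursors, fell from 62.5 ± 2.53 to 33.2 ± 0.669 CPM (-0.91 ± 0.07 on the log2 scale), and Sox1ot, a noncoding RNA that overlaps it, fell by 1.26. Reads of this pair may be shared, since the labels do not say whether libraries kept the strand. Sox2, which marks the same precursors, went from 432 ± 8.43 to 406 ± 2.62 CPM and was not called (adjusted p = 0.28). The part of astrocyte or oligodendrocyte lineage cells in the fall of Notch and channel genes was not tested.

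Some markers of the labelled cell type were called. Pericyte markers summed to between 130.9 and 141.7 CPM with PBS and between 138.9 and 155.5 CPM with vesicles, and of 11 tested 3 rose (27.3%, against 10.9% of all tested genes) and 2 fell (18.2%, against 8.9%). The higher count was 1 without PBS library 2 or 3 or vesicle library 3, and the lower count 1 without PBS library 1 or 2 or vesicle library 3. Cspg4 rose from 11.9 ± 0.90 to 17.5 ± 1.54 CPM (0.56 ± 0.11 on the log2 scale). Pdgfrb was called higher, from 59.7 ± 3.48 to 70.8 ± 4.89 CPM (adjusted p = 0.014), but lost the call in 4 of the 6 fits that left out a library. Rgs5 was scarce, with 0.0778, 0.475 and 0.297 CPM with PBS and 0.835, 0.493 and 1.35 CPM with vesicles, and was not called (adjusted p = 0.059). The values of Acta2, 572 ± 22.6 CPM with PBS and 587 ± 15.5 CPM with vesicles, overlapped between the groups. In the list of contractile and actin genes 9 of 35 rose (25.7%, against 10.9%) and 1 fell (2.86%, against 8.9%). Of these genes 5 rose without PBS library 2 or 3, and 3 fell without vesicle library 1. Itga5, the fibronectin receptor subunit, rose by 0.84 on the log2 scale.

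Wnt pathway genes moved both ways. Of 44 members listed and 37 tested, 6 rose (16.2%, against 10.9% of all tested genes) and 10 fell (27.0%, against 8.9%). The lower calls numbered 6 without PBS library 3. Among the ligands Wnt4 fell from 34.3 ± 3.57 to 19.8 ± 0.249 CPM and Wnt7b, known for its role in brain vessel growth, from 31.3 ± 0.856 to 19.5 ± 2.51 CPM, while Wnt6 rose from 8.86 ± 0.165 to 18 ± 1.83 CPM and Wnt11 by 0.92. Nkd1, a feedback inhibitor that canonical Wnt signalling induces, fell from 7.75 ± 1.01 to 3.46 ± 0.90 CPM (-1.17 ± 0.19 on the log2 scale). The repressor Tcf7l1 fell by 0.67 on the log2 scale.

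Some cell cycle genes were slightly lower. Of 61 tested members 20 fell (32.8%, against 8.9% of all tested genes) and 5 rose (8.2%, against 10.9%), with a median of -0.17. The lower calls numbered 10 without PBS library 2 and 11 without PBS library 3. E2f1, the factor that opens S phase, fell from 46.9 ± 0.726 to 36.7 ± 1.57 CPM and Rrm2, a subunit of ribonucleotide reductase, from 146 ± 5.02 to 119.8 ± 0.995 CPM. The members that rose were 3 cyclin-dependent kinase inhibitors and 2 D-type cyclins. Cdkn2b, which encodes p15 and is a TGF-beta target, rose from 66.1 ± 0.998 to 159 ± 3.26 CPM (1.27 ± 0.06 on the log2 scale, adjusted p = 2.5e-13). Cdkn1a, which encodes p21, rose by 0.33, Cdkn2a by 0.33 and Ccnd1 by 0.25 on the log2 scale. Mki67, the usual proliferation marker, was called lower (-0.20 ± 0.07 on the log2 scale, adjusted p = 0.047), its groups overlapped, and 4 of the 6 fits that left out a library lost the call.

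Genes of cholesterol and fatty acid synthesis fell in 11 of 34 tested members (32.4%, against 8.9% of all tested genes). None rose, and the median was -0.13. DESeq2 and limma voom also called 11 lower and 0 higher, 14 members had an unadjusted p under 0.05, and without vesicle library 2 edgeR called 1 higher. Srebf1, whose product switches on lipid synthesis, fell from 460.3 ± 8.13 to 365 ± 10.8 CPM, and its target Scd2, a fatty acid desaturase, from 3171 ± 112 to 2492 ± 125 CPM. Sqle, which commits squalene to sterols, fell from 157 ± 6.71 to 121 ± 3.81 CPM, and Fads1 fell by 0.29 on the log2 scale. Abca1, which exports cholesterol, rose from 376 ± 6.83 to 506 ± 49.6 CPM.

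No gene of a pair of housekeeping lists was called. None of 75 nuclear genes of oxidative phosphorylation was called by edgeR, with 2 at an unadjusted p under 0.05 and a median of 0.01, and DESeq2 and limma voom called none either. The fit without vesicle library 1 called 3 of them lower, the fit without vesicle library 3 called 1 higher and the fit without the count filter called 1 lower. None of 82 ribosomal protein genes was called by edgeR, DESeq2 or limma voom, 2 had an unadjusted p under 0.05 in edgeR, the fit without the count filter called 1 higher, and the fit without vesicle library 1 called 1 lower. Of 38 glycolysis and hypoxia genes 7 rose (18.4%, against 10.9% of all tested genes) and 5 fell (13.2%, against 8.9%). These counts were 4 higher without vesicle library 3, 8 lower without vesicle library 1 and 3 lower without PBS library 2. Among these genes, the glucose transporter Slc2a1 fell by 0.59 and the glycolytic activator Pfkfb3 rose by 0.72 on the log2 scale. In the list of the unfolded protein and integrated stress response 6 of 38 rose (15.8%, against 10.9%) and 4 fell (10.5%, against 8.9%). The latter count was 2 without PBS library 3. Of 20 heat shock genes 2 rose and 1 fell, and the fall was called in only 1 of the 6 fits that left out a library. Slc7a11, the cystine importer that feeds glutathione synthesis, rose from 19 ± 3.87 to 52.6 ± 3.53 CPM. Of 22 p53 targets 8 rose (36.4%, against 10.9%) and 1 fell (4.55%, against 8.9%). The death receptor Fas was among those that rose, by 0.97 on the log2 scale.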

How the data were processed

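The deposited table holds raw counts per gene, and a check found whole numbers for 55401 genes, 26257 of them 0 in all 6 libraries. Per the labels' protocols, the RNA was a Trizol extract of total RNA and the library kit was NEBNext Ultra. The authors used FastQC 0.11.8, HISAT2 2.0.5, featureCounts 1.5.0-p3 and limma, per the submitters' processing notes. Genome build, annotation and strandedness are not given in the sources used here. Genes therefore carry symbols, and antisense or overlapping genes are uncertain. The series design text on C3H10T1/2 knockdowns matches no sample, and the retina table was not used here.

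Columns were matched to samples by the description labels. In R 4.3.3 with edgeR 4.0.16, genes passing filterByExpr (minimum count 10) were scaled by TMM, which removes composition differences between libraries, and tested with the robust quasi-likelihood F test (2-sided, 4 residual degrees of freedom, Benjamini-Hochberg over 16975 genes). Each SE came from F, as the absolute log2 difference over its square root. The 3 against 3 design allows no exact permutation p under 0.1. Replicates differed beyond sampling noise, chi-squared per degree of freedom being at least 6.12. Over all tested genes, same-numbered libraries did not deviate together (correlations 0.0321, 0.0171 and -0.0219). Single genes could, as Hes1, which was lowest in library 2 and highest in library 3 of each group. CPM per kb used union exon lengths of GENCODE M21. Intervals and floors cover counting error only, as reads without molecular identifiers are not independent. The script was tested on simulated data.

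Gene lists were written from general knowledge, and lists and members were chosen with earlier results of these data known. Named genes were, in each direction, the 12 that changed most among those called (no overlap, at least 2 CPM in the higher group, no unnamed models), the 8 most abundant in each direction at 1.5-fold or more, up to 4 per list in order of p, and Ccl2, Pdgfrb, Rgs5, Acta2, Cspg4, Vtn, Sox10 and Pecam1. Other genes were named after their values were seen. Not every gene this took in is described, and some are not reported here. Alternatives were DESeq2 size factors, no count filter, DESeq2 1.42.0, limma voom (limma 3.58.1), a replicate block, and each library left out in turn.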

Additional observations from a re-analysis of the deposited data

How the results depend on the processing

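Over 11 alternatives, the total of called genes ranged from 2412 to 3500 against 3365, and between 70.1% and 99.7% of the genes called with all libraries were called again, none with the opposite sign. With DESeq2 size factors 3377 genes were called, without the count filter 3416, by DESeq2 3340 and by limma voom 3345. The fit with the replicate block called 3287 genes, 1814 higher and 1473 lower. The labels do not say whether the replicate numbers pair the libraries. With the block, 26 immediate early genes were called higher against 18, and Hes1 was called lower (adjusted p = 0.00011). Leaving out each library in turn gave from 2412 to 3500 called genes, from 1382 to 1927 higher, from 993 to 1573 lower, from 556 to 637 changed at least 2-fold, from 469 to 514 at least 2-fold higher and from 87 to 138 at least 2-fold lower. The lowest number of lower genes, 993, came without PBS library 3 and was outside 1.5 times the 1510 of the full fit, and the cause was not tested. Such a fit leaves 2 libraries in 1 group. Of 263 genes examined singly, 241 were called, 213 of these in all 11 alternatives, and 28 lost the call in at least 1. Of the 22 not called, 8 gained a call in at least 1. Only Vtn, which was not called, changed sign, from 0.04 to -0.13 without PBS library 1, -0.04 without vesicle library 1 and -0.02 without vesicle library 2, with 0.18 without vesicle library 3. Depth limits scarce genes most: a count of 3 came to at least 0.0778 CPM, so cytokines at 0 to 3 counts with PBS have folds known only within wide counting intervals.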

Other observations

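The ligands and receptors of the interferon route were measured besides its targets. Ifnb1, interferon beta, had counts of 1, 0 and 0 with PBS and of 1, 10 and 4 with vesicles and was too scarce to be tested. Ifng, interferon gamma, had 1 count in 1 PBS library and 0 with vesicles, and Ifna4 had 2 counts in vesicle library 3 only. All 4 receptor subunits rose. Ifngr1 and Ifngr2, which bind interferon gamma, rose from 57.6 ± 0.614 to 115 ± 7.37 CPM and from 45.3 ± 1.87 to 86.5 ± 3.94 CPM. Ifnar1 and Ifnar2, the receptor of type I interferons, rose by 0.42 and 0.74 on the log2 scale.

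Genes of iron and metal handling changed beside Cp and Lcn2. Of 12 tested metallothioneins and metal transporters 4 rose (33.3%, against 10.9% of all tested genes) and 2 fell (16.7%, against 8.9%). The latter count was 1 without PBS library 2 and 4 without vesicle library 1. Slc11a2, which imports ferrous iron, rose from 61.3 ± 0.793 to 101 ± 4.75 CPM, Slc39a14, another importer, by 0.47 on the log2 scale, and Fth1, the ferritin heavy chain, from 2706 ± 37 to 3444 ± 107 CPM. Mt1, a metallothionein, fell by 0.22 on the log2 scale. Among 39 lysosome and endocytosis genes 5 rose (12.8%, near the 10.9% of all tested genes), 8 without vesicle library 1, and none fell by edgeR, DESeq2 or limma voom (12 had an unadjusted p under 0.05 in edgeR). Of the 5, Ctsc, a lysosomal protease, rose by 0.92, Cav1, the caveolae protein, by 0.54 and Sqstm1, an autophagy receptor, by 0.50 on the log2 scale.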
